A study of Mus musculus with 14 samples.

Results

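The 33 genes described here encode the interferon response and the presentation of antigens by major histocompatibility complex (MHC) class I. They were chosen by symbol: 25 interferon-inducible genes and their regulators, and 8 genes of the class I pathway, of 22026 genes listed in each RNA table. All 33 were found, and their levels are given in FPKM (fragments mapped to a gene, scaled to its transcript length and to the size of the library) in the 4 RNA libraries of the series.

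Interferons are secreted proteins that cells release when they sense viral nucleic acid. Type I interferons act through a complex that includes STAT2 and IRF9 and binds the interferon-stimulated response element (ISRE) in the promoters of target genes, and interferon gamma acts at the gamma-activated sequence (GAS). Fibroblasts keep a basal level of many of these transcripts without infection, whereas pluripotent cells are known to respond weakly to interferon and to carry little MHC class I. Class I molecules show the cell surface peptides that were cut by the proteasome, carried into the endoplasmic reticulum by the TAP transporter and loaded with the help of tapasin.

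The cells were fibroblasts from mouse tails and carried a wildtype or an AID-null label. They were taken untreated or after 3 weeks of reprogramming by the factors Oct4, Sox2, Klf4 and cMyc. Each of the 4 combinations was represented by 1 RNA library of a bulk culture. There was no replicate, so no test was made and no spread between cultures is known. Strain, age, the number of animals and the way the factors were delivered are not given in the sources used here. In bulk samples, fewer cells of a type and less RNA per cell cannot be told apart.

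The labels were checked against marker genes. The group labelled AID-null is called by its label throughout. The libraries of the labels differed in Xist, the RNA of the inactive X chromosome, with 456 and 149 FPKM in both wildtype libraries against 0.99 and 1.78 FPKM in those labelled AID-null. Eif2s3y, a gene of the Y chromosome, was listed at 0 in both wildtype libraries and stood at 184 and 274 FPKM in the others. Sex and label therefore cannot be told apart in any difference between the labels given here. The 9 fibroblast markers summed to 80964 and 88204 FPKM in the untreated libraries. The 6 pluripotency markers summed to 4.53 and 7.99 FPKM there, and to 6407 and 6277 FPKM at 3 weeks.

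**Figure D1:**
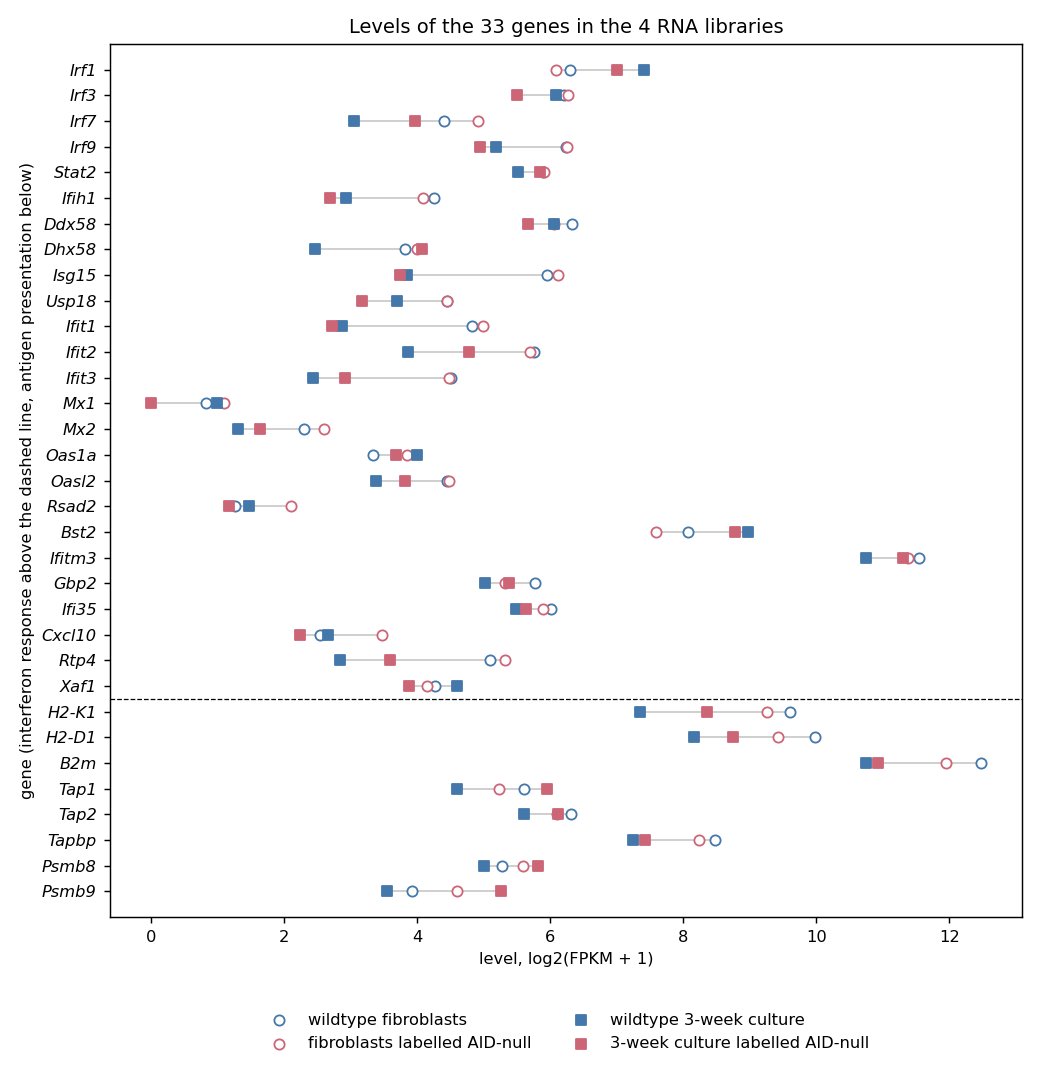
Level of each of the 33 genes on the log2(FPKM + 1) scale (horizontal axis) in 4 RNA libraries, 1 symbol per library. Open circles are fibroblasts and filled squares 3-week cultures, blue is wildtype and red the AID-null label. Isg15, Ifit1, Ifit3 and Rtp4 show both squares left of both circles, while Tap1 and Psmb9 show the red square farthest right.

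In untreated fibroblasts the 33 genes spanned several orders of magnitude, and the libraries of the labels were close. B2m, the light chain of all class I molecules, stood highest at 5694 FPKM in wildtype fibroblasts and 3948 FPKM under the AID-null label, rank 22 and rank 38 of all genes. Ifitm3, a membrane protein that blocks virus entry, followed at 2972 and 2666 FPKM. Mx1, a dynamin-like antiviral GTPase, stood lowest at 0.77 and 1.14 FPKM. The median member lay at 47.9 and 39.1 FPKM, near the median of all genes above 0, which was 45.3 and 44.0 FPKM. The 8 class I genes had medians of 217 and 184 FPKM and the 25 interferon genes 27.4 and 30.9 FPKM.

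Levels were compared as log2(FPKM + 1). Genes that reached 1 FPKM in either library were compared, and those at least 1 apart on that scale were counted. Between the fibroblast libraries all 33 members reached 1 FPKM, and 0 were counted as higher and 0 as lower under the AID-null label. Of all genes compared 4.26% were counted as higher and 1.34% as lower. The median difference of the members was 0.00, against -0.03 over all genes compared. The largest difference was that of Cxcl10, a chemokine that attracts T cells, at 4.82 FPKM in wildtype cells against 10.2 FPKM, a log2 difference of 0.94. H2-D1, a class I heavy chain, had the lowest at -0.56, from 1005 and 684 FPKM.

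At 3 weeks most of the 33 genes stood below their fibroblast level in both cultures. Of 32 members that reached 1 FPKM in the wildtype pair, 15 were counted as lower and 1 as higher, where 17.7% of all genes compared were lower and 27.0% higher. Of 33 members in the pair labelled AID-null, 10 were lower and 1 higher, where 17.6% of all genes were lower and 21.3% higher. The median of all 33 was -0.79 in the wildtype and -0.76 under the AID-null label, which lay -0.95 and -0.71 from the median of all genes compared. Neither pair shares a library with the other. Across the 32 members compared in both, the changes correlated at r = 0.65, and across all 14648 such genes at 0.84. These are correlations across genes, which are not independent replicates.

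The members counted as lower in both pairs were 7: Isg15, Ifit1, Ifit3, Rtp4, Ifih1, Irf9 and B2m. They were 46.7% of the members lower in the wildtype pair and 77.8% of those lower under the AID-null label, among members compared in both. For all genes compared in both, the corresponding shares were 61.8% and 64.4%. Not all of the 7 were counted under every setting. With a pseudocount of 5 the wildtype differences of Irf9 and Ifih1 were -0.98 and -0.99. The AID-null-labelled difference of B2m was -0.95 after upper-quartile and -0.89 after median-of-ratios scaling. Most of the 7 are interferon response genes, as were 25 of the 33 members by choice, so their kind is not a finding.

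Isg15 encodes a ubiquitin-like protein that is attached to other proteins during the interferon response. It stood at 61.0 FPKM in wildtype and 68.7 FPKM in AID-null-labelled fibroblasts, and at 13.3 and 12.3 FPKM in the 3-week cultures. Both cultures thus lay far below both fibroblast libraries, by -2.12 and -2.39 on the log2 scale. Usp18, the protease that removes Isg15 and dampens the receptor, stood at 20.9 and 20.9 FPKM in fibroblasts and 12.0 and 7.98 FPKM at 3 weeks. It was counted as lower under the AID-null label, at -1.28, while the wildtype difference was -0.75.

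The Ifit genes encode proteins that bind foreign RNA and restrain its translation. Ifit1 stood at 27.4 and 30.9 FPKM in fibroblasts and at 6.28 and 5.59 FPKM at 3 weeks. Ifit3 stood at 21.8 and 21.4 FPKM and then at 4.40 and 6.51 FPKM. A near-identical copy, Ifit3b, is listed separately, at 12.9 and 15.8 FPKM and then 3.04 and 3.13 FPKM, so the split of reads between the pair is uncertain. Ifit2 stood at 52.8 and 50.7 FPKM in fibroblasts, at 13.6 FPKM in the wildtype 3-week culture and at 26.5 FPKM in the one labelled AID-null. Its change of -1.89 in the wildtype was counted, and that of -0.91 under the AID-null label was not.

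Rtp4, a receptor transporter protein induced by interferon, had a wildtype change of similar size to those of Isg15 and the Ifit genes. It stood at 33.2 and 39.1 FPKM in fibroblasts and at 6.14 and 11.0 FPKM at 3 weeks, differences of -2.26 and -1.74. The other genes of this kind were closer between stages. Ifi35, an interferon-induced leucine zipper protein, differed by -0.53 and -0.26, and Xaf1, which promotes cell death, by 0.33 and -0.27. Cxcl10 went from 4.82 to 5.31 FPKM in the wildtype pair. The pair labelled AID-null had 10.2 and then 3.74 FPKM, a counted difference of -1.23.

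The cytosolic sensors of viral RNA had unlike values. Ifih1, which encodes MDA5, stood at 18.1 and 16.0 FPKM in fibroblasts and at 6.59 and 5.46 FPKM at 3 weeks, and was counted as lower in both pairs. Ddx58, which encodes RIG-I, kept most of its level, at 79.0 and 65.7 FPKM and then 65.3 and 49.9 FPKM. Dhx58, which encodes the related regulator LGP2, split by label. It went from 13.1 to 4.53 FPKM in the wildtype, a difference of -1.35, and from 15.0 to 15.9 FPKM under the AID-null label, a difference of 0.08.

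Among the regulators, only Irf1 stood above its fibroblast level at 3 weeks in both pairs. This transcription factor, induced by interferon gamma and active at class I and immunoproteasome genes, stood at 77.4 and 67.2 FPKM in fibroblasts and at 168 and 128 FPKM at 3 weeks. The wildtype difference of 1.11 was the 1 member counted as higher there, and the AID-null-labelled difference was 0.92. Under median-of-ratios scaling the latter was 1.04 and would be counted. Irf9, the DNA-binding subunit of the type I complex, stood at 74.5 and 74.9 FPKM and then at 35.4 and 29.8 FPKM. Stat2, its partner, stood at 58.1 and 59.3 FPKM and then at 44.5 and 56.6 FPKM. Irf7, which amplifies type I interferon production, stood at 20.2 and 29.3 FPKM in fibroblasts and at 7.26 and 14.7 FPKM at 3 weeks, a counted difference of -1.36 in the wildtype and one of -0.95 under the AID-null label. Irf3, which is present before infection and switched on by phosphorylation, differed by -0.12 and -0.76.

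The antiviral effectors had differences on both sides of 0. Bst2, or tetherin, which holds budding virus at the cell surface, stood at 267 and 192 FPKM in fibroblasts and at 501 and 439 FPKM at 3 weeks. Both cultures lay above both fibroblast libraries, and the difference of 1.19 under the AID-null label was counted, while that of 0.90 in the wildtype was not. Ifitm3 stood at 1720 FPKM in the wildtype culture after 3 weeks, 57.9% of its fibroblast level. Under the AID-null label it stood at 2527 FPKM, 94.8% of its fibroblast level. Oasl2, of the oligoadenylate synthetase family, stood at 20.8 and 21.2 FPKM and then at 9.47 and 13.1 FPKM, with the wildtype difference of -1.06 counted. Gbp2, a guanylate-binding protein, differed by -0.76 and 0.07, and Oas1a, an activator of RNA decay, by 0.67 and -0.16. Mx2, Mx1 and Rsad2, which encodes viperin, were at or below 5.04 FPKM in every library. Mx1 was listed at 0 in the AID-null-labelled culture.

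**Figure D2:**
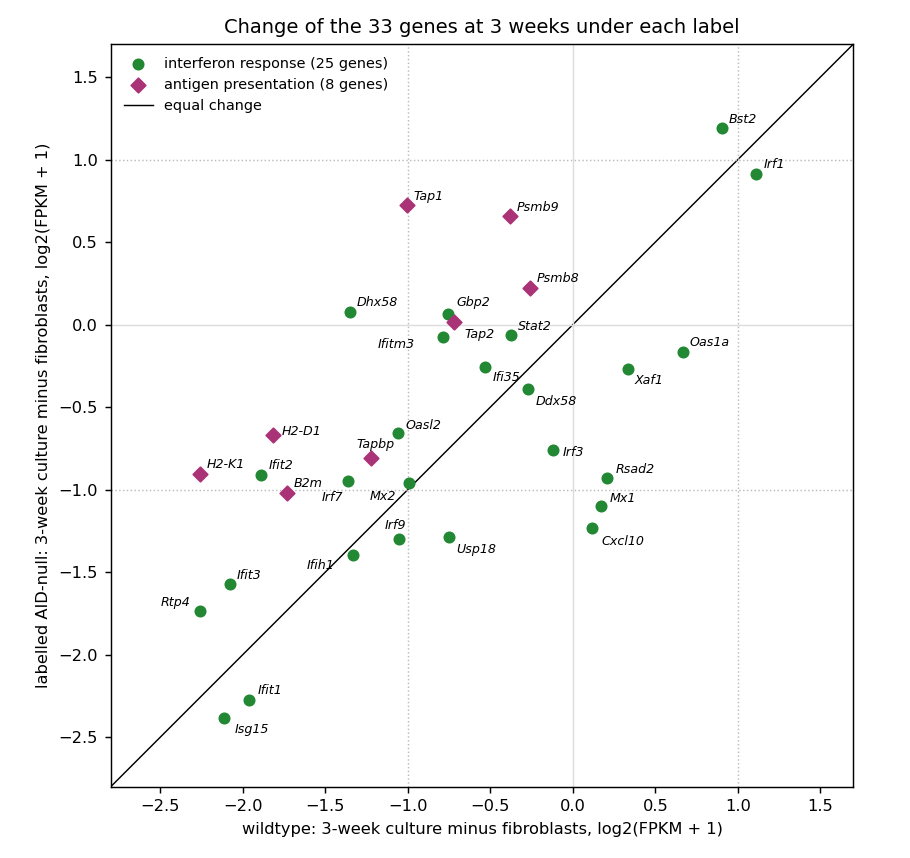
Change from fibroblasts to the 3-week culture for each of the 33 genes, on the log2(FPKM + 1) scale, in the wildtype pair (horizontal axis) and in the pair labelled AID-null (vertical axis). Green circles are 25 interferon response genes, purple diamonds 8 antigen presentation genes, the solid line marks equal change and the dotted lines mark a difference of 1. All 8 purple diamonds lie above the line of equal change, and 12 of the 25 green circles do.

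The upstream parts of the pathway were taken from a list of receptors, kinases and STATs. Of 12 such genes 7 were counted as lower in the wildtype pair and 0 as higher, and 6 as lower and 1 as higher under the AID-null label. Among all genes compared 17.7% were lower and 27.0% higher in the wildtype pair, and 17.6% and 21.3% under the AID-null label. The receptor chain gene Ifnar2 stood at 268 and 270 FPKM and then at 65.6 and 130 FPKM. The kinase gene Jak1 stood at 502 and 434 FPKM and then at 240 and 211 FPKM. Socs3, a feedback inhibitor of cytokine signalling that is also induced by LIF, was the gene counted as higher, from 96.0 to 252 FPKM. With upper-quartile scaling 2 of the 12 genes were lower under the AID-null label and with median-of-ratios scaling 1, while the wildtype count stayed at 7.

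The interferon genes themselves were not seen. Of 8 listed ligands 7, namely Ifnb1, Ifna1, Ifna2, Ifna4, Ifna5, Ifng and Il28b, were listed at 0 in all 4 libraries, and the cytokine Il15 stood between 2.09 and 7.27 FPKM. Of 14 sensing and relay genes 4 were lower and 2 higher in the wildtype pair, and 6 lower and 2 higher under the AID-null label. The shares over all genes compared, given above, were 17.7% lower and 27.0% higher, and 17.6% and 21.3%, so the share of these genes that stood higher was below that of all genes in both pairs. Both higher genes were Trim25, a ubiquitin ligase of the RIG-I pathway, at 73.3 and 75.8 FPKM and then 251 and 196 FPKM, and Zbp1, a sensor of Z-form nucleic acid, at 10.5 and 7.92 FPKM and then 47.4 and 48.6 FPKM. Tmem173, which encodes STING, the adaptor of DNA sensing, stood at 121 and 120 FPKM and then at 29.0 and 36.8 FPKM.

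Another list of 42 interferon-inducible genes had medians of -0.40 and -0.74. Of these 13 were lower and 7 higher in the wildtype pair, and 15 lower and 5 higher under the AID-null label, or 10 and 5 after median-of-ratios scaling. All genes compared had 17.7% lower and 27.0% higher in the wildtype pair, and 17.6% and 21.3% under the AID-null label. In both pairs the list thus had a larger share lower and a smaller share higher than all genes. Ifi44 stood at 34.0 and 36.6 FPKM and then at 4.76 and 7.49 FPKM. The chemokine gene Ccl5 stood at 9.18 and 18.3 FPKM in fibroblasts and was listed at 0 in both cultures. Against this, Ifitm1, a relative of Ifitm3 that is known to be active in germ cells and early embryos, stood at 3.45 and 5.41 FPKM and then at 133 and 94.1 FPKM. Pml, the organiser of nuclear bodies, stood at 38.0 and 34.2 FPKM and then at 170 and 142 FPKM.

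Promoter sequence of the members was searched for motif cores, and some stretches are printed. The genes printed were chosen with their values at 3 weeks known, and no groups of lower and higher members were compared. RefSeq windows of 300 bases, from 250 before to 50 after each annotated start (GRCm38.p6), were at hand for 27 of the 33 genes. The ISRE core was searched as GAAA, any 2 bases and GAAA again. The GAS core was searched as TTCNNNGAA, where N is any base, and a core for the factor NF-kB as GGGA, any base and TTTCC. Both strands were searched, and matches may overlap. The following 120-base stretches, from base -160 to base -41 before the start, show Isg15 and Ifit1, which were low in both cultures, Bst2 and Irf1, which were high, and B2m. Capitals mark every base of a match. Isg15 lies at chr4:156200859-156200978 on the minus strand, Ifit1 at chr19:34640729-34640848 on the plus strand and Bst2 at chr8:71537513-71537632 on the minus strand. B2m lies at chr2:122147527-122147646 and Irf1 at chr11:53769854-53769973, both on the plus strand.
Isg15: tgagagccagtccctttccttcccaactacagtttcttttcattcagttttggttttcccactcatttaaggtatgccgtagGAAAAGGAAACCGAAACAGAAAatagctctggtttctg
Ifit1: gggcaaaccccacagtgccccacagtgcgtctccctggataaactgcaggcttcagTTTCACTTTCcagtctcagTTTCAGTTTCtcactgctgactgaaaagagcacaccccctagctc
Bst2: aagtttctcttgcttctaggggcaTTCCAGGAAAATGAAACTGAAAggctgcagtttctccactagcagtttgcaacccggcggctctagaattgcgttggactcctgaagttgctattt
B2m: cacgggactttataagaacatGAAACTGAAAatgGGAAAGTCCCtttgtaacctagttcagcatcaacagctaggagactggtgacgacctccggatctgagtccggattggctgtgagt
Irf1: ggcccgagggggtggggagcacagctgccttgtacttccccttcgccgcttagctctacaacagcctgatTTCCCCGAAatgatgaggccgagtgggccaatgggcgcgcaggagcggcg

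The Isg15 stretch holds 3 overlapping ISRE matches beginning at bases -78, -72 and -66. Ifit1 holds 2, at -104 and -85, both on the other strand. Bst2 holds a GAS match at -136 that runs into 2 ISRE matches at -130 and -124, so a promoter with the same core belonged to a gene that stood higher at 3 weeks. B2m holds an ISRE match at -139 next to an NF-kB match at -126, and Irf1 a GAS match at -90.

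Over all windows the ISRE core was found in 3.44% of 32851 promoters, the GAS core in 8.30% and the NF-kB core in 0.411%. Counted by gene, as the members are below, the shares were 3.99%, 9.55% and 0.466% of 27025 genes. Among members, the ISRE core was found in 12 of 20 interferon genes and in 1 of 7 class I genes with a window. The GAS core was found in 7 of the 27 members and the NF-kB core in 1, B2m. In Ddx58, Ifih1 and Ifitm3 the ISRE matches lay after the start. The 13 members with an ISRE match had median changes of -0.76 in the wildtype and -0.93 under the AID-null label, and the 14 members without one -1.03 and -0.66. The members with a match thus had the smaller median decrease in the wildtype pair and the larger one under the AID-null label. The group without a match holds all class I genes with a window except B2m, so the groups also differ in kind of gene. A match is a string of letters and shows no binding.

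**Figure D3:**
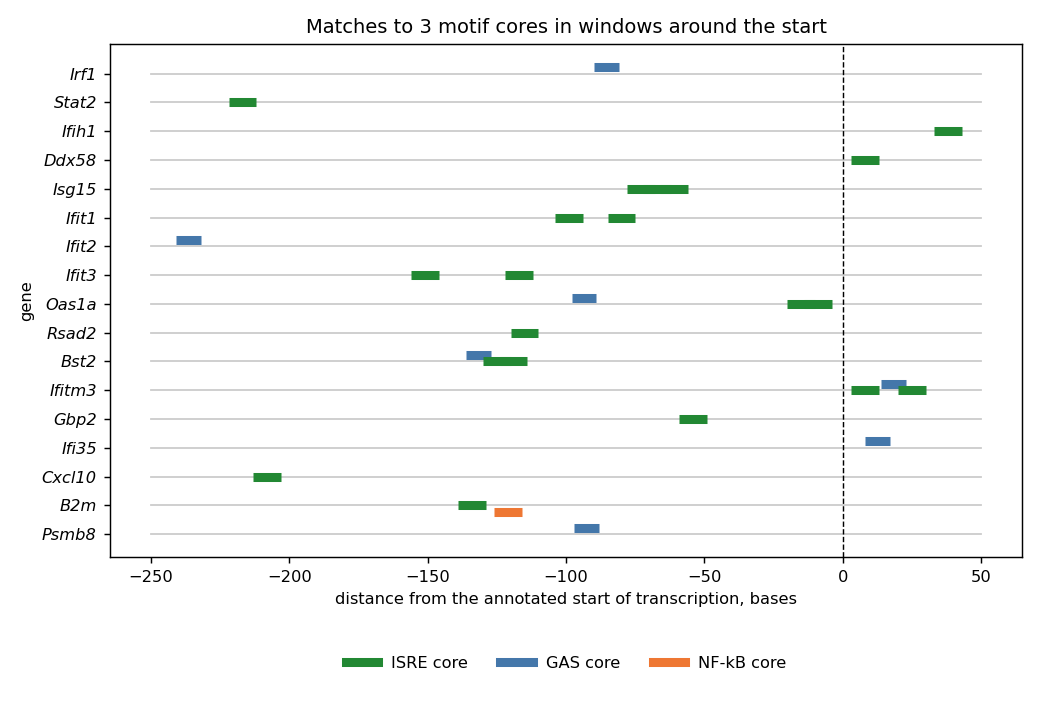
Position of each match to the 3 motif cores (bars) in the 17 member genes with any match, by distance in bases from the annotated start (dashed line), in windows from 250 before to 50 after it. Green bars are ISRE, blue GAS and orange NF-kB. Most matches lie before the start, and those of Ifih1, Ddx58, Ifitm3 and Ifi35 after it.

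The 8 genes of class I presentation stood lower at 3 weeks in the wildtype culture and split in the culture labelled AID-null. In the wildtype pair 5 of 8 were counted as lower, where 17.7% of all genes compared were lower. The differences of all 8 lay below 0, with a median of -1.12. Under the AID-null label 1 of 8 was counted as lower, not above the 17.6% of all genes compared. The differences of 4 lay below 0 and of 4 above, with a median of -0.33. The counted gene was B2m, at -1.02, and it was not counted at -0.95 (upper-quartile scaling) or at -0.89 (median-of-ratios scaling).

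The molecules shown at the cell surface come first. H2-K1, a classical class I heavy chain, stood at 779 FPKM in wildtype and 612 FPKM in AID-null-labelled fibroblasts, and at 162 and 327 FPKM in the 3-week cultures. H2-D1, the other classical heavy chain, stood at 1005 and 684 FPKM and then at 284 and 430 FPKM. B2m stood at 5694 and 3948 FPKM and then at 1711 and 1948 FPKM. For all 3, both cultures lay below both fibroblast libraries, and the order of the labels was opposite in fibroblasts and at 3 weeks. The wildtype culture kept 20.8% of the fibroblast level of H2-K1, 28.3% of H2-D1 and 30.0% of B2m. The culture labelled AID-null kept 53.4%, 62.9% and 49.3%. Class I heavy chain genes resemble each other closely, so reads may have been split between them, and single values are uncertain.

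The genes that supply peptides had another pattern. Tap1, a subunit of the peptide transporter, went from 47.9 to 23.3 FPKM in the wildtype pair and from 36.7 to 61.2 FPKM under the AID-null label. Tap2, its partner, had 78.9 and then 47.5 FPKM in the wildtype, against 67.7 and 68.5 FPKM. Tapbp, which encodes tapasin, stood lower in both cultures, from 355 to 151 FPKM and from 301 to 171 FPKM. The inducible proteasome subunit gene Psmb9 went from 14.2 to 10.6 FPKM in the wildtype pair and from 23.2 to 37.1 FPKM under the AID-null label, and Psmb8 from 37.6 to 31.2 FPKM and from 47.2 to 55.3 FPKM. In Tap1, Psmb8 and Psmb9 the AID-null-labelled culture held the highest of the 4 values and the wildtype culture the lowest. The counted wildtype difference of Tap1, -1.01, lay at the edge of the threshold and was -0.90 with a pseudocount of 5.

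Psmb9, Tap1, Psmb8 and Tap2 follow each other in this order on chromosome 17. Tap1 and Psmb9, which of the 8 class I genes described here differed most between the 3-week cultures, point away from each other and share the DNA between their starts. That stretch of 225 bases lies at chr17:34187331-34187555 (GRCm38.p6) and is shown on the plus strand, with Psmb9 leaving at its left end and Tap1 at its right end. It is printed because 1 stretch serves as promoter to both genes. It is 61.3% G or C and holds 12 CG dinucleotides. None of the 3 cores was found in it, so no base is in capitals.
Tap1-Psmb9: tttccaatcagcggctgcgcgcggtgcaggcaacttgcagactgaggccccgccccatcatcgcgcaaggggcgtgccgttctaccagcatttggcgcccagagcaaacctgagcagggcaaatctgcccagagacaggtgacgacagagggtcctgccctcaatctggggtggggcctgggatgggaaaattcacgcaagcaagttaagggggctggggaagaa

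Between the 3-week cultures the class I genes stood higher under the AID-null label and the interferon genes showed no common direction. Of 32 members compared 4 were counted as higher and 0 as lower, where 9.76% of all genes compared were higher and 11.6% lower. The 4 were Psmb9 at 1.71, Dhx58 at 1.61, Tap1 at 1.36 and H2-K1 at 1.01. All 8 class I genes had differences above 0, from 0.18 in Tapbp to 1.71 in Psmb9, with a median of 0.70, against -0.18 over all genes compared. The 25 interferon genes had 11 differences above 0 and 14 below, with a median of -0.14. Upper-quartile scaling gave a median of 0.01 and median-of-ratios scaling one of 0.03, so its direction depends on the scaling. The class I genes remained 8 of 8 above 0 under both scalings, with medians of 0.88 and 0.90.

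Just inside the threshold lay H2-K1, at 1.01 (0.99 with a pseudocount of 5), and just outside it Irf7 at 0.93 and Ifit2 at 0.92. Both of the latter were counted after either scaling, at 1.09 and 1.09 and at 1.11 and 1.11. Mx1, at 0.99 FPKM in the wildtype culture and listed at 0 in the other, had the lowest difference, -0.99. The comparisons between labels use the same libraries as the comparisons over time, so they are not further evidence for them.

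**Figure D4:**
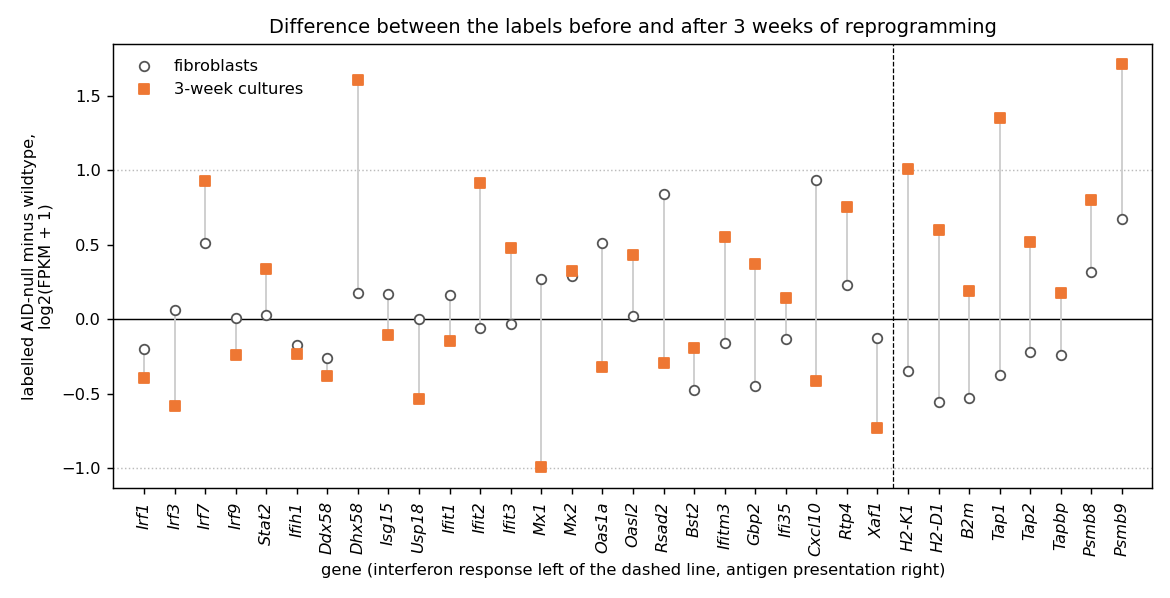
Difference between the labels, AID-null minus wildtype, on the log2(FPKM + 1) scale (vertical axis) for each of the 33 genes, in fibroblasts (open circles) and 3-week cultures (orange squares). Dotted lines mark a difference of 1. The fibroblast circles lie within -0.56 and 0.94, and the squares of all 8 genes at the right lie above 0.

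The wildtype change over time was then subtracted from the change under the AID-null label. Of 33 members 5 were counted as higher and 3 as lower, where 9.68% of all genes compared were higher and 13.9% lower. The higher ones were Tap1 at 1.73, Dhx58 at 1.43, H2-K1 at 1.36, H2-D1 at 1.15 and Psmb9 at 1.04. The lower ones, Cxcl10 at -1.35, Mx1 at -1.27 and Rsad2 at -1.14, all had low levels. For all 8 class I genes the difference lay above 0, with a median of 0.89, and for 12 of 25 interferon genes, with a median of -0.06.

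Ratios of genes within a library do not depend on how the library was scaled. The inducible proteasome subunits replace constitutive ones: Psmb8 replaces Psmb5, Psmb9 replaces Psmb6, and Psmb10, which is not a member, replaces Psmb7. Psmb8 stood at 10.9% of Psmb5 in wildtype and 15.1% in AID-null-labelled fibroblasts, and at 7.86% and 20.8% in the 3-week cultures. Psmb9 stood at 3.39% and 5.25% of Psmb6 and then at 1.46% and 5.78%. Psmb10 stood at 13.1% and 13.3% of Psmb7 and then at 10.3% and 12.8%. At 3 weeks the ratio under the AID-null label was thus 2.64 times that of the wildtype for Psmb8, 3.96 times for Psmb9 and 1.24 times for Psmb10.

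Unequal change within the class I pathway was seen in other ratios too. Tap1 stood at 60.7% and 54.2% of Tap2 in fibroblasts, and at 49.1% and 89.4% at 3 weeks. H2-K1 stood at 13.7% and 15.5% of B2m in fibroblasts, and at 9.45% and 16.8% at 3 weeks. Between the 3-week cultures the constitutive proteasome genes went the other way from Psmb8 and Psmb9, but not from Psmb10. Psmb10 itself stood lower under the AID-null label, at 101 and 77.6 FPKM, a difference of -0.38. All 14 constitutive genes stood lower under the AID-null label, with a median of -0.51 and 0 counted. The median of all genes compared was -0.18, and after upper-quartile or median-of-ratios scaling 13 or 12 of the 14 stood lower. Psmb5 stood at 397 and 266 FPKM and Psmb6 at 729 and 643 FPKM.

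**Figure D5:**
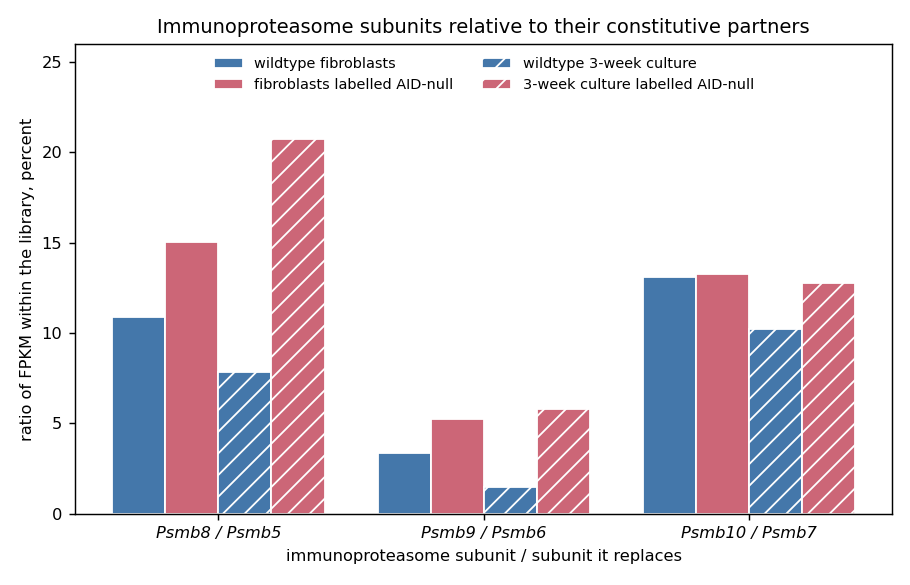
FPKM of each inducible proteasome subunit gene as a percent of the constitutive subunit gene it replaces (vertical axis, from 0), in 4 libraries with 1 bar each. Plain bars are fibroblasts and hatched bars 3-week cultures, blue is wildtype and red the AID-null label. For Psmb8 and Psmb9 the hatched red bar is the highest of its group and the hatched blue bar the lowest.

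Other class I genes were taken from a list that the members do not include. Of 11 nonclassical and related genes 6 were counted as lower in the wildtype pair and 1 under the AID-null label. The shares of all genes compared were 17.7% and 17.6% lower, and 27.0% and 21.3% higher. In each pair 1 was counted as higher, H2-Q7 at 1.60 in the wildtype and H2-Ke6 at 1.18 under the AID-null label. Between the 3-week cultures 10 of 11 lay above 0 under the AID-null label, with 2 of 10 compared counted as higher and 1 as lower. There, 9.76% of all genes compared were higher and 11.6% lower. H2-T23, which encodes the ligand of inhibitory receptors on natural killer cells, stood at 125 and 111 FPKM in fibroblasts and at 18.8 and 73.7 FPKM at 3 weeks. Mr1, which presents vitamin metabolites, differed by 1.62 between the 3-week cultures and by -0.50 between the fibroblasts. H2-Q7 was the lower one, at 7.10 FPKM against 0.96 FPKM. After either scaling 4 were counted as higher in place of 2. The list also held H2-Ke6, a steroid dehydrogenase gene of the region, and without it, as seen after the values were known, 9 of 10 lay above 0.

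A further list held chaperones, regulators, proteasome genes and other genes of the class I pathway. It had no common direction between the 3-week cultures, with 4 differences above 0 under the AID-null label and 7 below. Of 11 listed genes 0 were counted as higher and 1 as lower between the 3-week cultures, with a median of -0.49. The share counted as lower was near the 11.6% of all genes, and the median was -0.31 after upper-quartile and -0.28 after median-of-ratios scaling. The lower one was Hspa5, a chaperone of the endoplasmic reticulum, at 3580 and 1464 FPKM. Nlrc5, a transactivator of class I genes, stood at 4.39 and 3.79 FPKM in fibroblasts and at 2.77 and 4.79 FPKM at 3 weeks. Erap1, which trims peptides for class I, stood at 73.3 and 72.5 FPKM and then at 23.5 and 15.0 FPKM.

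Class II genes are normally restricted to professional antigen-presenting cells. Of 7 listed, 3 of 6 compared were counted as higher under the AID-null label at 3 weeks and 0 as lower. Between the fibroblasts 3 of 6 were likewise higher, namely Cd74, H2-Aa and H2-Eb1, and 0 lower. The median of the 7 was 0.69 in fibroblasts and 0.23 at 3 weeks. As a share of all genes compared, 4.26% were higher between the fibroblasts and 9.76% at 3 weeks. H2-Ab1 was among those higher at 3 weeks, at 114 and 102 FPKM in fibroblasts and then at 43.0 and 211 FPKM. H2-Aa, its partner chain, stood at or below 5.80 FPKM in every library. Cd74, the class II chaperone, stood at 8.78 and 38.4 FPKM in fibroblasts and at 1.77 and 2.12 FPKM at 3 weeks. Ciita, the class II regulator, was listed at 0 in 3 libraries and at 0.32 FPKM in the wildtype 3-week culture.

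Macrophage markers were mostly higher under the AID-null label at both stages, and fibroblast markers at 3 weeks but not in the untreated cells, where 0 of 9 were counted. Macrophages carry high class I and immunoproteasome levels, and their 14 markers summed to 1823 FPKM in wildtype and 3234 FPKM in AID-null-labelled fibroblasts, and to 642 and 1686 FPKM in the 3-week cultures. Of the 14, 12 were counted as higher under the AID-null label in fibroblasts and 11 at 3 weeks. The other 3 at 3 weeks were Laptm5, at 265 FPKM in the wildtype culture against 184 FPKM, Cd14, at 219 against 147 FPKM, and Cd68, at 112 against 193 FPKM. These 3 hold most of the sum in the wildtype culture, and Laptm5 and Cd14 stood lower under the AID-null label, by -0.53 and -0.57. Ptprc, Emr1, Tyrobp, C1qa, C1qb and C1qc were listed at 0 in the wildtype 3-week culture and between 4.48 and 48.2 FPKM in the one labelled AID-null. The 9 fibroblast markers summed to 3895 and 15014 FPKM at 3 weeks, and 8 of them were counted as higher under the AID-null label. The 12 markers of T, NK, B and dendritic cells summed to between 3.56 and 6.79 FPKM in every library, with 8 to 11 of them listed at 0. The part of macrophages or of fibroblasts kept in culture in the class I difference was not tested. In fibroblasts, where macrophage markers were likewise higher under the AID-null label, Psmb8 and Psmb9 were higher by 0.32 and 0.67, while H2-K1, H2-D1, B2m, Tap1, Tap2 and Tapbp were lower by 0.22 to 0.56.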

How the data were processed

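RNA was sequenced in 4 libraries and DNA methylation was profiled in 10. Per the submitters' processing notes, TopHat, Cufflinks, Bismark and methylKit were used with the mouse build mm9. Neither versions nor the gene annotation are given in the sources used here. RNA tables as deposited hold FPKM values normalised by the authors. The 10 methylation tables were not analysed here, because no gene annotation of mm9 was at hand to place positions at the members. FPKM summed to 1708869 to 2012350 per library. Low values (0.2 to 1.5 FPKM) showed no common step between libraries: at most 3.87% of genes shared the commonest ratio. The RNA read depth is therefore unknown, no count model was used, and no interval is given.

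Groups were taken from the sample titles. A pseudocount of 1 FPKM was added before taking log2, which understates the change of low genes. Genes reaching 1 FPKM in a library of the comparison were counted at a difference of at least 1, a 2-fold change of FPKM + 1. With 1 library per group no test was possible. The level of the targeted gene is not reported here. Calculations used Python 3.11.15, pandas 2.3.3 and numpy 2.4.6, and the counting was tested on simulated data. All 202 listed genes were found, 6 through older symbols in the RefSeq table. Members, lists and motifs were chosen with earlier results of these data known. All members are named, and genes of other lists by the size of their difference or their role in the pathway. Pseudocounts of 0.1 and 5, no minimum, a minimum of 5 FPKM, and upper-quartile and median-of-ratios scaling were tried as alternatives.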

Additional observations from a re-analysis of the deposited data

Results flagged for a closer look

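In 6 of the 33 genes the change from fibroblasts to the 3-week culture had opposite signs under the labels. The changes of these genes also differed by at least 1 on the log2(FPKM + 1) scale. Over all genes compared, with no rule on signs, 9.68% were higher by at least 1 and 13.9% lower. The share with opposite signs was not counted, so the 6 genes cannot be called unusual. With 1 library per group the difference between the changes was not tested. AID-null minus wildtype, it was 1.73 in Tap1, 1.43 in Dhx58 and 1.04 in Psmb9, where the wildtype change lay below 0 and the AID-null-labelled change above. It was -1.35 in Cxcl10, -1.27 in Mx1 and -1.14 in Rsad2, where the order was reversed. The latter 3 stood at or below 10.2 FPKM in every library, and with a pseudocount of 5 their differences were -0.86, -0.35 and -0.49. Those of Dhx58 and Psmb9 were then 0.99 and 0.87, also under the threshold. That of Tap1 stayed above 1 under every setting tried.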

How the results depend on the processing

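With 1 library per group and no read depth, no value has an error, and no library could be left out. No paired analysis was possible because the RNA libraries carry no replicate numbers. A median was taken as moved if it differed by over 1.5 times. With a pseudocount of 0.1, 2 members (Rsad2 and Cxcl10) were higher between the fibroblasts. With a pseudocount of 5, 10 members were lower in the wildtype pair in place of 15. The median change under the AID-null label was then -0.50, and between the changes 3 were higher and 0 lower. With a minimum of 5 FPKM 1 was lower there. After upper-quartile scaling the medians were 0.0541 between fibroblasts and 0.37 between 3-week cultures. After median-of-ratios scaling they were 0.0265 and 0.39, and 0.48 between the changes, with 7 members higher between 3-week cultures and 2 higher over time under the AID-null label. All other counts and medians of the 33 genes kept their direction and lay within 1.5 times. The median of all genes between the 3-week cultures was -0.18 as deposited, -0.01 after upper-quartile and 0.02 after median-of-ratios scaling, and all genes then numbered 1858 higher and 1261 lower, or 1918 and 1198, against 1484 and 1757.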

Other observations

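The class I genes other than B2m lie on chromosome 17 among other genes. From Tapbp to H2-D1 the RefSeq order holds 81 protein-coding genes listed in the RNA tables, a region chosen after the values were seen. Leaving out the members and the other listed MHC genes, 68 remained, of which 59 were compared between the 3-week cultures. Of the 59, 9 were counted as higher and 10 as lower under the AID-null label, with a median of -0.02. The corresponding shares of all genes compared were 9.76% and 11.6%, both below those of the 59. Still among the 68 were MHC genes that were not listed, such as H2-Oa and H2-DMb2. Among the higher ones, named after their values were seen, were Aif1, Lst1, Tnf and complement genes of the region. Cfb, a protease of the alternative pathway, had 1.78 FPKM (wildtype) and 15.5 FPKM (AID-null label), and C4b 2.28 and 8.36 FPKM. Heat shock genes, also named after their values were seen, were among the lower ones, with Hspa1b at 109 and 27.9 FPKM and Hspa1a at 74.8 and 19.9 FPKM.

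Ifi27l2a, of the wider list of interferon-inducible genes, had the largest difference between the labels of the 42 genes at both stages. It stood at 12.0 and 72.7 FPKM in fibroblasts, and was listed at 0 in the wildtype 3-week culture and at 19.2 FPKM in the one labelled AID-null. Isg20, an exonuclease gene, was close in fibroblasts at 48.5 and 51.8 FPKM and stood at 7.33 and 34.8 FPKM at 3 weeks. Irgm1, a GTPase gene induced by interferon gamma, had the opposite order, at 65.0 and 61.9 FPKM and then 64.3 and 18.4 FPKM.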
